A study of Mus musculus with 20 samples.

Results

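The genes described here are 10 cell-cycle inhibitors, p53 and p53-linked genes, followed in translating RNA of mouse epididymal adipocytes through obesity and weight loss (WL). They were chosen by name, as the rows of the gene table that carry the symbols Cdkn1a, Cdkn1b, Cdkn1c, Cdkn2a, Cdkn2b, Cdkn2c, Trp53, Mdm2, Ccnd1 and Gdf15, and all 10 were found among 46078 genes. Of these, 9 had enough counts to be tested together with 21464 genes, and Cdkn2a did not. The RNA came from TRAP-seq (translating ribosome affinity purification), in which GFP-tagged ribosomes are pulled from frozen epididymal fat. All mice were male and carried AdipoERCre and NuTRAP, so that Cre under the adiponectin promoter switched on the tagged ribosomes after tamoxifen, given to every mouse, controls included, 2 times at 4 to 5 weeks of age and followed by 2 weeks of washout. The labels give the background as C576BL6.

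The study set 8 groups in 2 arms. In the short arm, C mice were 18 weeks old and ate chow, H mice were 18 weeks old with 12 weeks of high-fat diet (HFD), CC_s mice were 26 weeks old and ate chow, and HC mice were 26 weeks old after 12 weeks of HFD and 8 weeks of chow (n = 3 mice each). In the long arm, CC_l mice were 31 weeks old and ate chow, HH mice were 31 weeks old with 25 weeks of HFD, CCC mice were 39 weeks old and ate chow, and HHC mice were 39 weeks old after 25 weeks of HFD and 8 weeks of chow (n = 2 mice each). The controls received a low-fat chow while the others received HFD, and in the WL period both received another chow. The sample descriptions of the arms carry different prefixes, whose meaning the labels do not give, and each obese or WL group was compared with the chow group of its own arm and age.

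Cells stop dividing in G1 when cyclin-dependent kinases are held back by inhibitor proteins. Cdkn1a (p21), Cdkn1b (p27) and Cdkn1c (p57) form the CIP/KIP family, which binds cyclin-CDK complexes, and Cdkn2a, Cdkn2b (p15) and Cdkn2c (p18) belong to the INK4 family, which binds Cdk4 and Cdk6, the partners of cyclin D1 (Ccnd1). Trp53 encodes p53, a transcription factor that stress stabilizes as a protein; it induces Cdkn1a and also Mdm2, the ligase that degrades p53 in turn, while Gdf15 encodes a secreted stress cytokine that p53 and the integrated stress response can induce. p21 and p16, the latter from Cdkn2a, are the usual RNA markers of senescence, a durable arrest that has been described in adipocytes of obese fat. Because p53 is controlled largely as a protein, its RNA level does not give its activity.

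RefSeq promoter windows (GRCm38.p6, 250 bases before to 50 bases after each start) were present for 8 of the 10 genes, 12 windows in all. The letters before the start are shown for Cdkn1a at both of its starts, for Trp53, for Mdm2 and for Gdf15 at its upstream start only, because these genes form the p53 branch. Capitals mark half-sites of the p53 response element (10 bases), the GC box GGGCGG and the TATA box TATAAA, searched on both strands; the half-site reads the same on both strands as a pattern. TTGCATCA, the ATF4 and CHOP element, was searched too. The sequences read 5′ to 3′ on the gene's strand.
Cdkn1a, upstream start, chr17:29090729-29090978, plus strand: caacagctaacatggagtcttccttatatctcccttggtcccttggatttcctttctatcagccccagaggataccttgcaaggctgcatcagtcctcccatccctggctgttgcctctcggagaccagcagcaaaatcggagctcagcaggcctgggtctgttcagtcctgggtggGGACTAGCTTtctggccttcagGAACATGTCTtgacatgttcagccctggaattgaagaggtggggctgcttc
Cdkn1a, downstream start, chr17:29093519-29093768, plus strand: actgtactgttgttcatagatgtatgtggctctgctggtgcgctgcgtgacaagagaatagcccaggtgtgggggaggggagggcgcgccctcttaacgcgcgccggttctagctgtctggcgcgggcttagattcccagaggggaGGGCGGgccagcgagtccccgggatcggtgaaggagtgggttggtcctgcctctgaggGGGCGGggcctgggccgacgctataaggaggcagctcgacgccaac
Trp53, chr11:69580109-69580358, plus strand: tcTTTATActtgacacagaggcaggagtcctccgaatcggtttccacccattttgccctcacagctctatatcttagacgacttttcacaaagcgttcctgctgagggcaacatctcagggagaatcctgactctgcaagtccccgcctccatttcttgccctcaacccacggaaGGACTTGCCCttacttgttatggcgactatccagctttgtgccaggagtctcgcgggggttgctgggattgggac
Mdm2, chr10:117710759-117711008, minus strand: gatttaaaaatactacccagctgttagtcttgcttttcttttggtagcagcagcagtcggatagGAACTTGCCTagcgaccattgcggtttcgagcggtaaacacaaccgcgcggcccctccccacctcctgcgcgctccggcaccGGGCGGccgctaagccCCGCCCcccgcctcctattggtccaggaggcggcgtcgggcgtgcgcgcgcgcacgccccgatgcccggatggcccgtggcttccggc
Gdf15, chr8:70632457-70632706, minus strand: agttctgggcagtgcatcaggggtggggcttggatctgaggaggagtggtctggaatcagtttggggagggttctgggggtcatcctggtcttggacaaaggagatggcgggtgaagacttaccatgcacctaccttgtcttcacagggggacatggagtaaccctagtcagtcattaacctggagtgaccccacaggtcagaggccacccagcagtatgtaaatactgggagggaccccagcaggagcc

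The upstream Cdkn1a window held 2 p53 half-sites, GGACTAGCTT and GAACATGTCT, which begin 73 and 51 bases before the start and lie 12 bases apart. The letters directly after GAACATGTCT, tgacatgttc, depart from the half-site pattern at the leading t alone, and they were left unmarked as an inexact match. Single half-sites occurred in 8.36% of 32851 promoter windows, whereas a pair with at most 13 bases between them occurred in 24 windows (0.0731%), the Cdkn1a window among them. The downstream Cdkn1a window had 2 GC boxes, a motif present in 35.7% of windows. Trp53 and Mdm2 each held 1 half-site, GGACTTGCCC and GAACTTGCCT. Trp53 also had 1 match to the TATA box letters, on the opposite strand (TTTATA). It lay at bases 3 to 8 of the window, at the end far from the start. Matches to these letters were found in 13.6% of windows. Mdm2 had 2 GC boxes. The Gdf15 window shown held none of the searched letters, nor did the window of its other, downstream start (chr8:70632046-70632345). TTGCATCA was in 0.895% of windows. These are exact matches to the patterns, sites with a mismatch were not searched, and the matches describe the letters only.

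Libraries held between 10710277 and 36738954 counts. Adipocyte markers (Adipoq, Plin1 and 6 others) were high in every library, yet their summed level ranged from 12256 to 130581 CPM (counts scaled to library size), and 4 libraries lay lowest, namely C mice 1 and 2, HC mouse 3 and CCC mouse 2, at 12256 to 22368. Spermatid markers summed to 3140 CPM in CC_l mouse 1 and 442 in HC mouse 3, against at most 91.1 elsewhere. Macrophage markers (Adgre1, Cd68 and 6 others) summed to 171 to 368 CPM in C, CC_s and CC_l, to 538 to 3206 in H, 499 to 1245 in HC and 3109 to 4163 in HH, and to 724 to 793 in CCC against 730 to 1221 in HHC. The macrophage, endothelial, progenitor and spermatid RNA was in the pulldown although the tag is placed in adipocytes, and its part in the results below was not tested.

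In lean chow mice (n = 10), the members differed widely in level per kilobase of exon. Cdkn2c was the highest at a median of 201 CPM per kb, above 98.8% of the tested genes. Cdkn2b (20.2), Cdkn1c (18.7) and Mdm2 (11.4) followed, with overlapping ranges, and then Cdkn1a (7.05), Cdkn1b (6.15), Trp53 (2.24), Ccnd1 (1.31) and Gdf15 (0.298), where each gene overlapped its neighbours as well. The ranges of Cdkn2c (55.7 to 317 CPM per kb) and Cdkn2b (3.99 to 40.1) did not overlap. Among the INK4 genes Cdkn2c thus had the highest level per kb, and the p16 gene Cdkn2a lay at a median of 0.

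A member was called a differentially expressed gene (DEG) at a nominal p under 0.01 with a log2 fold change of 1 or more in either direction (edgeR's quasi-likelihood test, two-sided); Benjamini-Hochberg adjusted p-values over the 21464 tested genes are given beside it. In H, Cdkn1a and Trp53 rose (2 of 9, against 3.57% of all tested genes called up) and no member fell. In HC, Cdkn1a and Gdf15 rose (2 of 9, against 1.57%) and Cdkn1c fell (1 of 9, against 0.172%). In HH, Trp53 rose (1 of 9, against 4.91%) and Cdkn1c fell (1 of 9, against 1.88%). In HHC, DESeq2 called 1 member. The edgeR fit of all 8 groups, with TMM scaling and the filter on low counts, called 0 of 9 (3.12% of all genes in either direction). In that fit 2 members (10.7% of all genes) had a nominal p under 0.05 in HHC. After adjustment over all genes in this fit, only Cdkn1a in H passed 0.05 among the members, where 2.12% of all genes passed in H, 0 in HC, 2.07% in HH and 0 in HHC. Where a bulk level changes, fewer cells of a type and less RNA per cell cannot be told apart.

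**Figure D1:**
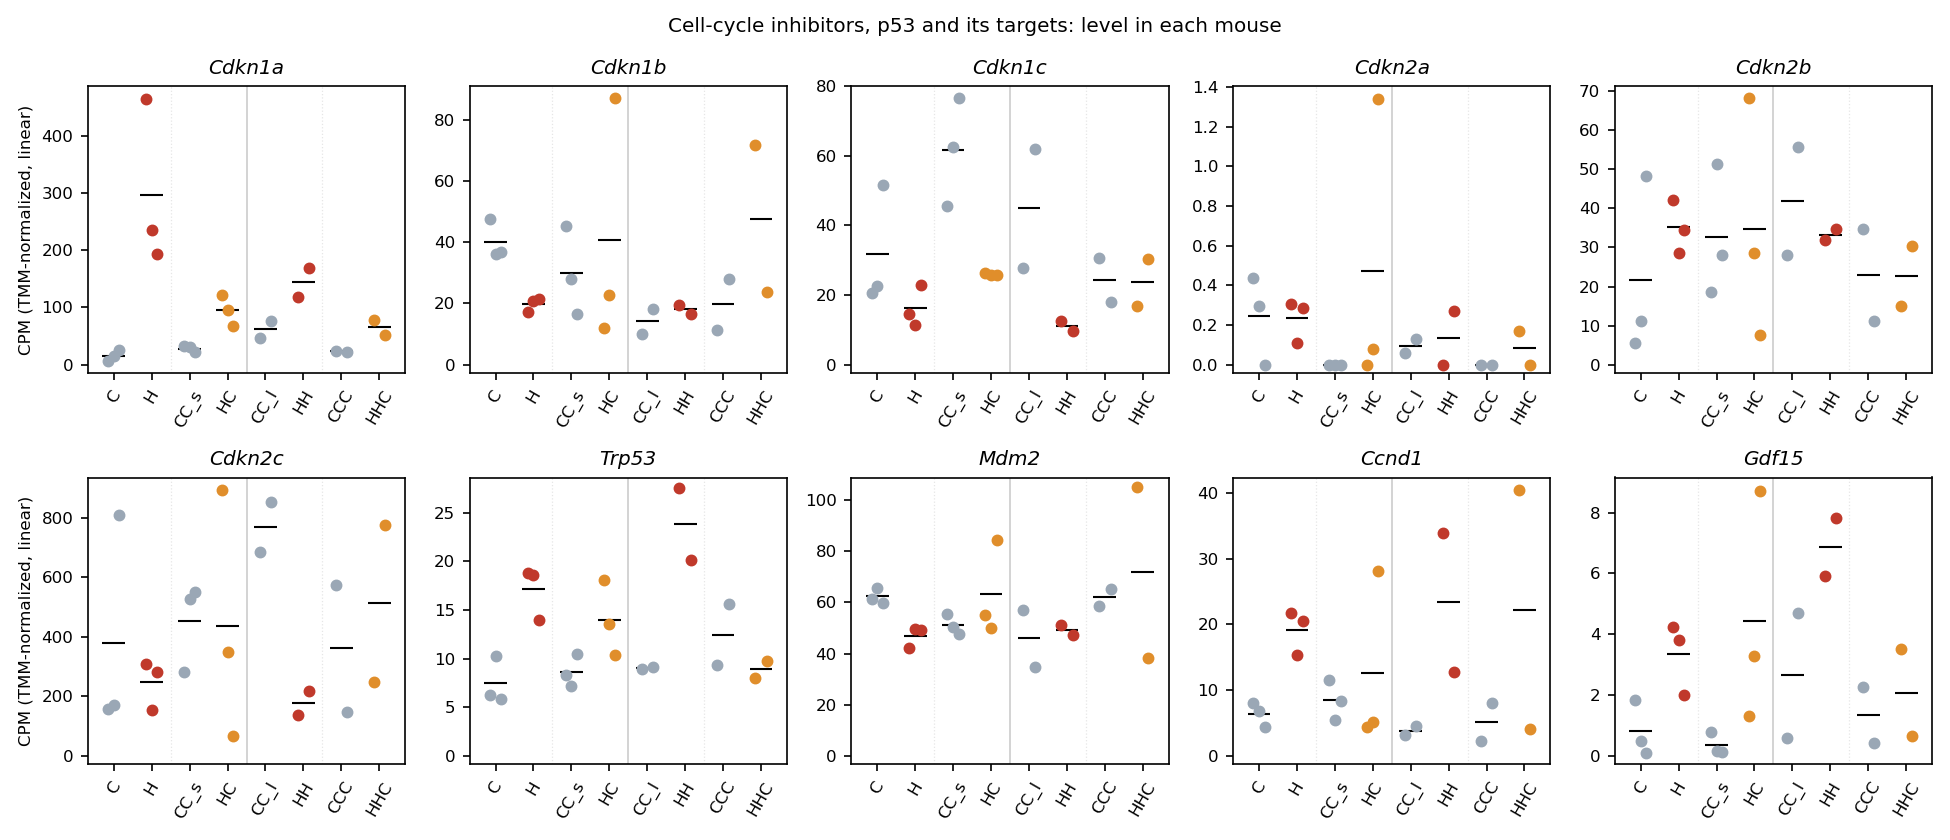
Each panel shows 1 gene as CPM (TMM-normalized, linear axis) in every mouse of the 8 groups, with chow in grey, HFD in red and WL in orange; black bars are group means, and the vertical line separates the short and the long arm. Cdkn1a lay at 193 to 464 CPM in H, above all other mice, and Cdkn2a stayed at or under 1.34 CPM.

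Cdkn1a lies on chromosome 17 (29090976 to 29100727, plus strand, mm10) and had the smallest p of the members in H and in HC. In C mice it was measured at 5.99, 14.5 and 26.0 CPM, and in H mice at 464, 234 and 193 CPM. All 3 H mice were thus above all 3 C mice, as they were for 13.4% of tested genes, and every H mouse exceeded every other mouse of the study. The mean rose from 15.5 ± 10.0 to 297 ± 146 (SD, n = 3 each), 19.2-fold or 4.26 on the log2 scale (SE 0.52; adjusted p = 0.00108 in edgeR), and only 2 of the 766 genes called up in H had a smaller p. Summed macrophage markers were at 538 to 3206 CPM in H and 187 to 344 CPM in C, also without overlap, and their part in the Cdkn1a difference was not tested. Without the 4 libraries low in adipocyte markers, which left 1 C mouse, the log2 fold change was 3.62. The highest adjusted p of the 8 alternatives run was 0.0290, in the edgeR fit of H and C alone.

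After 8 weeks of chow, Cdkn1a in HC lay below every H mouse and above every matched control. HC mice had 122, 96.0 and 67.5 CPM and CC_s mice 31.9, 30.0 and 21.3 CPM, with no overlap (first group higher in 8.01% of tested genes). The log2 fold change was 1.78 (SE 0.47; adjusted p = 0.536 in edgeR), with 3 of 3 HC mice above every CC_s mouse. The adjusted p depended on the setting. It was 0.00788 with DESeq2, 0.00232 in edgeR without the filter on low counts and 0.905 in edgeR with the replicate block. The log2 fold change ranged from 1.56 to 1.97 when each mouse was left out in turn, and without CC_s mouse 3 it was 1.62 and no longer a DEG. The H effect exceeded the HC effect by 2.48 on the log2 scale (SE 0.66; adjusted p = 0.325 for the difference), and Cdkn1a was the 1 member of 9 with a larger effect in H by the DEG cut-offs (0.48% of all genes). Without the 4 libraries low in adipocyte markers this difference was 1.71 and not called.

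In the long arm no Cdkn1a difference was called in the fit of all 8 groups with TMM scaling and the filter on low counts. HH mice had 119 and 168 CPM of Cdkn1a against 47.3 and 76.4 CPM in CC_l mice, a log2 fold change of 1.22 (SE 0.57; adjusted p = 0.280). It was called in the fit of the long arm groups HH and CC_l alone (1.41). HHC mice had 78.8 and 52.0 CPM against 24.1 and 22.4 CPM in CCC mice, a log2 fold change of 1.49 (SE 0.57; adjusted p = 0.362). In both comparisons the 2 mice with HFD history lay above the 2 controls, as in 26.3% and 8.51% of tested genes. The HHC difference was called with RLE scaling (1.63), with DESeq2 (1.63) and without the filter on low counts (1.55). The CC_l mice themselves had more Cdkn1a than the CCC mice, which were older (CCC minus CC_l, log2 -1.41, SE 0.57; adjusted p = 0.402). The HH effect fell short of the H effect by 3.04 on the log2 scale (SE 0.74; adjusted p = 0.848), a comparison across arms in which Cdkn1a was the 1 member called lower (0.303% of all genes).

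Trp53, on chromosome 11 (69580359 to 69591873, plus strand), was called up in both obese groups and in neither WL group. C mice had 6.31, 10.3 and 5.91 CPM and H mice 18.8, 18.6 and 14.0 CPM, without overlap (H higher in 13.4% of tested genes). The log2 fold change was 1.19 (SE 0.35; adjusted p = 0.0870 in edgeR), a DEG. It was lost as a DEG without C mouse 1 (1.11), C mouse 3 (1.04), H mouse 1 (1.12) or H mouse 2 (1.13), and also without the filter on low counts (1.17) and in the fit of C and H only (1.16). HH mice had 27.5 and 20.1 CPM and CC_l mice 8.96 and 9.16 CPM, a log2 fold change of 1.39 (SE 0.43; adjusted p = 0.105). This call was lost without CC_l mouse 1 (1.38), CC_l mouse 2 (1.41) or HH mouse 1 (1.15), and without the filter on low counts (1.48).

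Among WL mice, Trp53 was at 18.1, 13.6 and 10.4 CPM in HC against 8.34, 7.21 and 10.5 CPM in CC_s, overlapping by 1 mouse of each group (log2 0.69, SE 0.35; adjusted p = 0.581). HHC mice had 8.05 and 9.80 CPM against 9.31 and 15.6 CPM in CCC, again overlapping (log2 -0.48, SE 0.43; adjusted p = 0.722). The HH effect was larger than the HHC effect by 1.87 on the log2 scale (SE 0.60; adjusted p = 0.144), the 1 member of 9 called here (4.76% of all genes), whereas the H and HC effects differed by 0.50 (SE 0.49; adjusted p = 0.774). The Trp53 difference between HH and HHC was kept as a call in 2 of 8 fits that left out 1 mouse, and lost without CC_l mouse 1 (1.86), CC_l mouse 2 (1.89), HH mouse 1 (1.63), CCC mouse 2 (1.46), HHC mouse 1 (1.74) or HHC mouse 2 (1.98). It was also not called with RLE scaling (1.73), without the 4 libraries low in adipocyte markers (1.34) or in 4 other fits.

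Mdm2, on chromosome 10 (117688875 to 117710758, minus strand), the p53-induced ligase of p53, showed no call in the 4 comparisons. H mice had 42.3, 49.7 and 49.2 CPM against 61.3, 65.7 and 59.9 CPM in C. All 3 H mice were below all 3 C mice, as in 10.6% of tested genes, although the difference was small (log2 -0.40, SE 0.33, interval -1.06 to 0.25; adjusted p = 0.570). In HH the difference was 0.09 (SE 0.41), in HC 0.30 (SE 0.33) and in HHC 0.21 (SE 0.41), with overlapping mice each time. In H the interval of Mdm2 therefore ended at 0.25, while that of Cdkn1a ran from 3.24 to 5.29.

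Gdf15, on chromosome 8 (70629393 to 70632456, minus strand), was among the rarest members, at 2 to 176 counts per library. CC_s mice had 0.794, 0.164 and 0.127 CPM, from 12, 4 and 2 counts, and HC mice 1.30, 3.29 and 8.72 CPM. No HC mouse overlapped a CC_s mouse (HC higher in 8.01% of tested genes), and the highest HC value came from HC mouse 3, a library low in adipocyte markers. The log2 fold change was 3.62 (SE 1.20; adjusted p = 0.536), and without HC mouse 3 it was 2.68 and no longer a DEG. The call was also lost without CC_s mouse 2 (3.25) or CC_s mouse 3 (3.23), and in the fit of the compared groups only (3.52).

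Gdf15 in H mice reached 4.26, 3.80 and 2.01 CPM against 1.85, 0.496 and 0.0895 CPM in C. The groups did not overlap, as in 13.4% of tested genes, and Gdf15 was not called (log2 2.05, SE 1.11; adjusted p = 0.360). Without C mouse 1 the value was 3.52, and without the 4 libraries low in adipocyte markers 5.25, still not called. In HH it was 5.92 and 7.81 CPM against 0.610 and 4.71 CPM (log2 1.38, SE 1.31; adjusted p = 0.614), which was 0.54 without CC_l mouse 1 and 3.48 without CC_l mouse 2. In HHC it was 3.52 and 0.646 against 2.27 and 0.439 CPM (log2 0.61, SE 1.32; adjusted p = 0.918). In all 4 comparisons the mean was higher in the group with HFD history. The lowest and the highest C mouse, from 2 and 34 counts, lay farther apart than the mean of H and the highest C mouse.

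Cdkn1c, on chromosome 7 (143458339 to 143461050, minus strand), encodes p57, an imprinted CIP/KIP inhibitor, and fell in HC and HH. CC_s mice had 45.6, 62.4 and 76.7 CPM and HC mice 26.3, 25.8 and 25.8 CPM. The HC mice were nearly equal and all below CC_s, as in 5.82% of tested genes. Cdkn1c fell by 1.25 on the log2 scale (SE 0.42; adjusted p = 0.536), a call that was kept when CC_s mouse 1 was left out and lost without any other single mouse of the pair of groups (-1.25 to -1.06). In HH it was 12.5 and 9.62 CPM against 27.9 and 62.0 CPM in CC_l, a log2 fold change of -2.02 (SE 0.53; adjusted p = 0.0556). Without CC_l mouse 2 the value was -1.33, and without HH mouse 2 it was -1.85, in neither case a DEG.

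In H, Cdkn1c was 14.5, 11.5 and 22.9 CPM against 20.7, 22.7 and 51.6 CPM in C, overlapping at the 22.9 CPM of 1 H mouse (log2 -0.96, SE 0.42; adjusted p = 0.251). It was not called except without the 4 libraries low in adipocyte markers (-1.55). In HHC it was 16.9 and 30.2 CPM against 30.6 and 18.0 CPM (log2 -0.04, SE 0.51, interval -1.04 to 0.95). The HH and HHC effects on Cdkn1c differed by -1.98 (SE 0.72; adjusted p = 0.195), past the fold but not the p of a DEG. That difference was called with DESeq2 (-2.09), with RLE (-2.09), without the filter on low counts (-1.92), and without CC_l mouse 1 (-2.45) or HHC mouse 1 (-2.34). Of the Cdkn1c exons, 30.7% overlap Gm44732 on the opposite strand, a gene without a row in the table; the libraries do not mark strand.

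Cdkn1b, encoding p27, on chromosome 6 (134920401 to 134925513, plus strand), was not called in the fit of all 8 groups. H mice had 17.3, 20.9 and 21.6 CPM against 47.7, 36.0 and 36.8 CPM in C, so that all 3 H mice were lower, as in 10.6% of tested genes (log2 -1.01, SE 0.60; adjusted p = 0.407). In the fit of H and C alone this was a call (-1.04). In HC and HHC 1 mouse each stood above the rest of its group. HC mouse 3 had 87.2 CPM while the other HC mice had 11.8 and 22.9 CPM, and HHC mouse 1 had 71.8 CPM while the other had 23.7 CPM. The log2 fold change in HC was 0.44 (SE 0.59) and became -0.79 without HC mouse 3. In HH it was 0.35 (SE 0.73), and in HHC 1.27 (SE 0.74; adjusted p = 0.561).

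Among the INK4 genes, Cdkn2a (chromosome 4, 89274471 to 89294653, minus strand) gave 73 counts over the 20 libraries. It was at 0 in 9 mice, including all CC_s and CCC mice, for which 3 counts would correspond to 0.123 to 0.198 CPM. The highest value was 1.34 CPM (27 counts) in HC mouse 3, one of the libraries low in adipocyte and high in spermatid markers, and the next was 0.435 CPM in C mouse 1. H mice, at 0.304, 0.109 and 0.288 CPM, lay within the range of C mice, at 0.435, 0.298 and 0 CPM. A rise of Cdkn2a with obesity was not detectable at this depth. The gene has separate starts for p16 and p19ARF, which gene-level counts do not separate.

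Cdkn2b, encoding p15, lies beside Cdkn2a (89306299 to 89311039, minus strand). It was measured at 42.2, 28.6 and 34.5 CPM in H and at 5.55, 11.1 and 48.2 CPM in C, where the 2 low mice were the libraries low in adipocyte markers (log2 0.70, SE 0.74; adjusted p = 0.666). Without C mouse 3 the Cdkn2b value in H was 2.07, and without the 4 libraries low in adipocyte markers -0.35, neither called. The lowest values in HC (7.63 CPM, mouse 3) and CCC (11.2 CPM, mouse 2) also came from such libraries. The log2 fold changes were 0.09 in HC, -0.33 in HH and -0.01 in HHC, with SEs of 0.73 to 0.90, and none was called.

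Cdkn2c, encoding p18, lies on chromosome 4 (109660876 to 109667189, minus strand) and was also low in the libraries low in adipocyte markers. C mice had 158, 170 and 809 CPM, with summed adipocyte markers of 22368, 20380 and 130581 CPM in the same order. HC mice had 893, 348 and 67.1 CPM, with 75906, 74118 and 13876 CPM of markers. In HH it was 136 and 219 CPM against 683 and 852 CPM in CC_l, without overlap, as for 28.9% of tested genes, and not called in the fit of all 8 groups (log2 -2.11, SE 1.00; adjusted p = 0.289). It was called without the filter on low counts (-2.02) and in the fit of HH and CC_l alone (-1.94). The summed adipocyte markers were 25728 and 31838 CPM in HH and 56909 and 62223 in CC_l. In H, HC and HHC the log2 fold changes were -0.61, -0.06 and 0.50, with SEs of 0.79 to 0.97, and the mice overlapped.

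Ccnd1, encoding cyclin D1, the CDK partner that the INK4 proteins compete with, lies on chromosome 7 (144929931 to 144939925, minus strand). H mice had 21.7, 15.3 and 20.5 CPM against 8.06, 6.84 and 4.48 CPM in C, with all 3 H mice higher, as in 13.4% of tested genes (log2 1.57, SE 0.77; adjusted p = 0.309). HH mice had 33.8 and 12.8 CPM against 3.20 and 4.52 CPM in CC_l, also without overlap, as in 26.3% of tested genes (log2 2.60, SE 0.98; adjusted p = 0.181). HHC mice had 40.4 and 4.09 CPM against 2.33 and 8.12 CPM in CCC, a log2 fold change of 2.08 (SE 0.96; adjusted p = 0.450) that rested on 1 mouse and was -0.35 without HHC mouse 1. In HC, 28.1 CPM in mouse 3 stood beside 4.36 and 5.22 CPM, against 11.5, 5.53 and 8.43 CPM in CC_s (log2 0.57, SE 0.75). None of these was a DEG in the edgeR fit of all 8 groups with the filter. Ccnd1 was called in H without the filter (1.54) and with the compared groups alone (1.54), in HH with DESeq2 (2.59), with the likelihood ratio test (2.60), without the filter (2.70) and with the compared groups alone (2.76), and in HHC without the filter (2.13), with the compared groups alone (2.28) and without HHC mouse 2 (2.93). LTO1, on the opposite strand, shares 23.4% of the Ccnd1 exon bases, and unstranded reads there cannot be told apart.

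**Figure D2:**
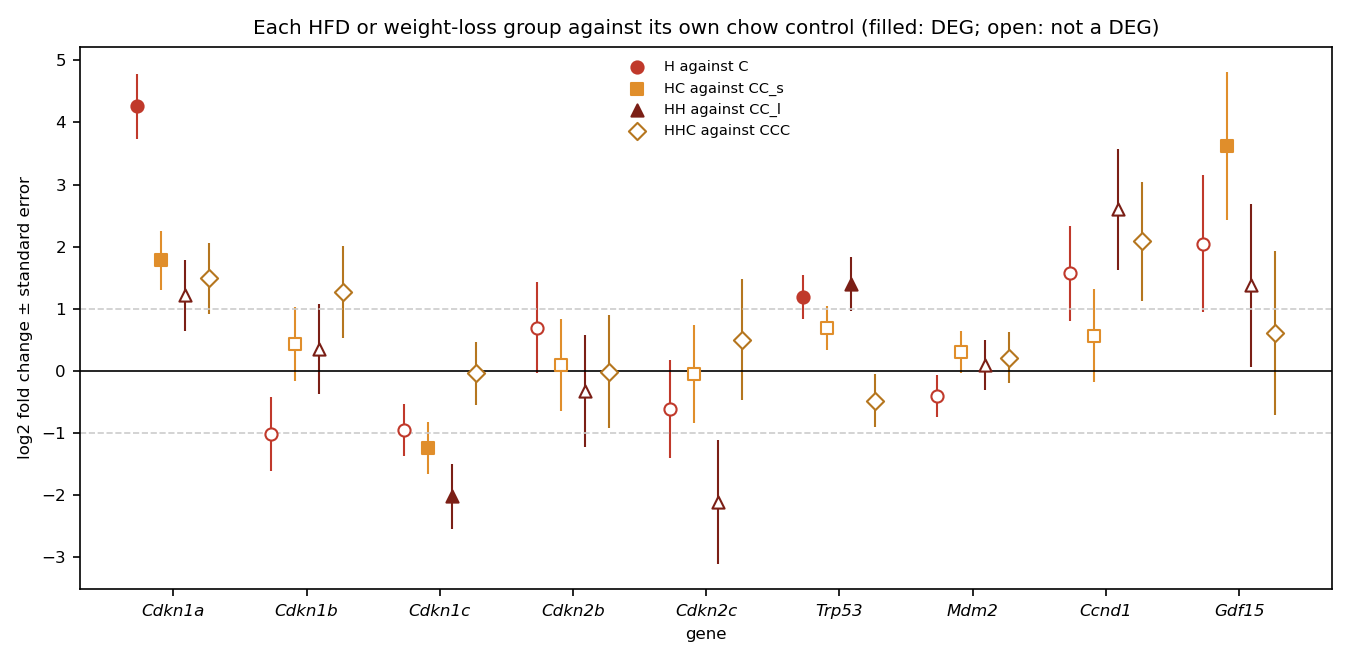
Log2 fold change with its standard error (vertical axis) for the 9 tested members in the 4 comparisons with a chow control (red circles H against C, orange squares HC against CC_s, dark red triangles HH against CC_l, brown diamonds HHC against CCC); filled symbols are DEGs and dashed lines mark a log2 fold change of 1 in either direction. Cdkn1a is above 1 in all 4 comparisons, from 1.22 to 4.26, and Cdkn1c is below -1 in HC and HH.

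Chow groups of different age were also compared, and since the older ones ate another chow in the WL period, age and chow cannot be told apart. In edgeR 0 of 9 members were DEGs for CC_s against C and for CCC against CC_l (2.45% and 2.66% of all tested genes were called), with 1 member at a nominal p under 0.05 in each comparison (11.2% and 11.5% of all genes), and DESeq2 called Cdkn1a for CCC against CC_l. Cdkn1c in CC_s was at a log2 fold change of 0.96 (SE 0.42; adjusted p = 0.426), and Cdkn1a in CC_s was at 0.84 (SE 0.46; adjusted p = 0.483). Without C mouse 3 both were called, Cdkn1c at 1.51 and Cdkn1a at 1.44.

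Genes around the members were read from 7 lists. Over all tested genes, 3.57% were called up in H, 1.57% in HC and 4.91% in HH, and 3.12% in either direction in HHC. The list counts below stand beside these shares. Of 23 other p53 target genes, 2 rose in H, 3 in HH, none in HC or HHC, and none fell. Plk2, a p53-induced kinase, rose in H from 13.8 ± 7.61 to 60.2 ± 19.8 CPM (log2 2.13, adjusted p = 0.0608) and in HH from 8.62 ± 0.03 to 71.5 ± 16.6 CPM (log2 3.05, adjusted p = 0.0376). Bax, which permeabilizes mitochondria in apoptosis, rose in H (log2 1.52), and Eda2r (3.20) and the death receptor gene Fas (1.52) rose in HH. Leaving out 1 mouse, the Bax call was lost without C mouse 1 (1.24), C mouse 2 (1.40) or H mouse 1 (1.37), the Eda2r call without CC_l mouse 2 (2.90), and the Fas call without CC_l mouse 1 (1.35), CC_l mouse 2 (1.71) or HH mouse 1 (1.26). Without the 4 libraries low in adipocyte markers Plk2 in H was 3.67 and Bax in H was 0.86, Bax no longer called. The median log2 fold change of the list was 0.42 in H, 0.21 in HC, 0.35 in HH and 0.33 in HHC, beside -0.15, 0.27, -0.23 and -0.06 over all tested genes.

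Of 12 p53 regulators, 2 rose in H and 1 in HH, against 3.57% and 4.91% of all tested genes called up. Chek2, the checkpoint kinase that phosphorylates p53, rose from 3.95 ± 0.72 to 19.6 ± 1.23 CPM in H (log2 2.31, SE 0.40; adjusted p = 0.00802) and from 4.72 ± 0.64 to 26.9 ± 16.4 CPM in HH (log2 2.51, adjusted p = 0.0252). Hipk2, another p53 kinase gene, rose in H (log2 1.57). Of 18 genes of the G1 machinery, Ccne1, encoding cyclin E1, rose in H (log2 2.12), Cdk6 rose in HC (1.86) and Cdk2 fell in HHC (-2.05), and none was called in HH. In H, HC and HHC this was 1 of 18 genes each, beside 3.57% (up), 1.57% (up) and 3.12% (either direction) of all tested genes. The highest HC mouse had 191 CPM of Cdk6 and the lowest 28.9 CPM. Cdk6 in HC was 0.46 without HC mouse 3 and was not called there or without CC_s mouse 1 (1.95), CC_s mouse 2 (1.68) or CC_s mouse 3 (1.97). Cdk2 in HHC was -1.29 without CCC mouse 2 and -1.48 without HHC mouse 2, in neither case called. Ccne1 was not called without C mouse 1 (1.92), C mouse 2 (2.03) or H mouse 3 (2.01), nor Hipk2 without C mouse 1 (1.26), C mouse 2 (1.49), H mouse 1 (1.19) or H mouse 3 (1.62). Without the 4 libraries low in adipocyte markers Hipk2 was 0.92 and Ccne1 1.62, also not called.

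Of 18 proliferation genes, 9 rose in H (against 3.57% of all tested genes), where Cdkn1a rose too. All 18 had a higher mean in H and none was called down, with a median log2 fold change of 2.36. Bub1 (4.02), Cdk1 (3.97, adjusted p = 0.0136) and Mki67 (3.49) had the largest differences, and Mki67 went from 2.80 ± 1.44 to 31.5 ± 10.2 CPM. In HH 3 of 18 rose, the replication helicase genes Mcm6 (log2 2.12), Mcm3 (1.89) and Mcm4 (1.87). In HC 0 of 18 and in HHC 1 of 18 was called, Cdk1 (2.90), which went from 0.628 ± 0.04 to 4.72 ± 0.44 CPM. The Cdk1 call in HHC was lost in each of the 4 fits that left out 1 mouse (2.80 to 2.98), as was the Mcm3 call in HH (1.73 to 2.03). Mcm6 (1.83) and Mcm4 (1.55) were not called without CC_l mouse 1, and Bub1 (3.62) was not called without C mouse 3.

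Factors of the senescence-associated secretory phenotype were the list with most calls in HH. Of 23 tested, 6 rose and 1 fell in H, 1 rose in HC, 8 rose in HH and 1 fell in HHC, with medians of 1.18, 1.08, 2.76 and 0.55. Over all tested genes, 3.57%, 1.57% and 4.91% were called up in H, HC and HH. Mmp3, a matrix protease gene, rose in H (log2 4.33) and HH (7.48, adjusted p = 0.0298), the chemokine gene Ccl8 in H (4.29, adjusted p = 0.0110) and the protease inhibitor gene Timp1 in HH (4.34, adjusted p = 0.0418). Mmp12, a macrophage elastase gene, rose in H (4.13) and in HC (5.34). Mmp13 was at 0 counts in both CC_l mice and at 1.73 ± 0.25 CPM in HH, at least 27.7-fold higher, taking 3 counts over the CC_l group as the floor. The angiogenic factor gene Vegfa fell in HHC by 2.45 on the log2 scale, with CCC mice at 83.2 and 338 CPM. The Vegfa value was -1.11 without CCC mouse 2, and its call was lost there and without HHC mouse 1 (-2.47) or HHC mouse 2 (-2.45). The Mmp13 call was lost in all 4 such fits, the Timp1 call without CC_l mouse 1 (3.99), the Mmp3 call in H without H mouse 2 (2.93), and the Mmp12 call in H without C mouse 2 (4.03), C mouse 3 (3.71) or H mouse 2 (3.04). Ccl8 in H was 2.80 without H mouse 2, and Mmp12 in HC was 3.36 without HC mouse 3, both still called.

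Of 8 other senescence marks, including the lamin gene Lmnb1, only Glb1 in HH was a DEG (1 of 8, against 4.91% of all tested genes called up). Glb1 encodes lysosomal beta-galactosidase and went from 13.3 ± 1.60 to 47.1 ± 6.39 CPM (log2 1.83). Of 10 integrated stress response targets, Vldlr, a lipoprotein receptor gene, rose in H (log2 1.50, adjusted p = 0.0495) and HH (1.81), and no other gene of the list was called. This was 1 of 10 in H and in HH, against 3.57% and 4.91% of all tested genes called up. The Glb1 call was lost without CC_l mouse 1 (1.71) or HH mouse 2 (1.68), and also without CC_l mouse 2, and the Vldlr call in HH without CC_l mouse 1 (1.59).

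**Figure D3:**
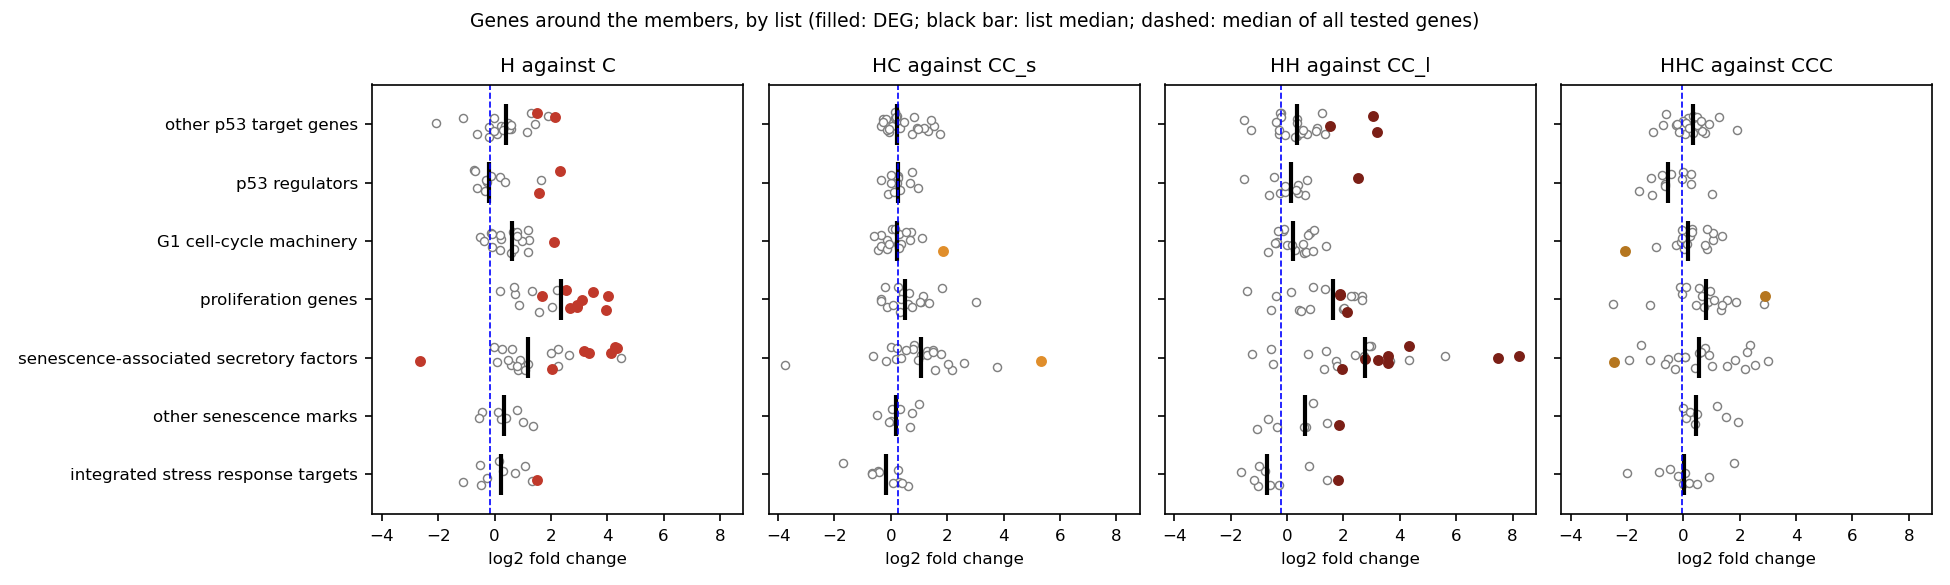
Log2 fold changes (horizontal axis) of the tested genes of 7 lists around the members, 1 panel per comparison; each point is a gene, filled where it is a DEG, black bars are list medians and the blue dashed line is the median of all tested genes. Proliferation genes in H (median 2.36) and secretory factors in HH (median 2.76) lie farthest from the dashed line.

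Marker lists of macrophages and other cell types were counted in the same way. Over all tested genes, 3.57% were called up in H, 1.57% in HC and 4.91% in HH, and 3.12% in either direction in HHC. Of 8 macrophage markers 6 rose in H, 6 in HC, 8 in HH and none in HHC, and none fell. Endothelial markers rose in H (4 of 6) and HH (6 of 6), and 2 of 6 fell in HHC. Adipocyte progenitor markers rose in HH (4 of 6), with 1 of 6 in H and in HC. Among lipid-associated macrophage markers 5 of 6 rose in H, 4 in HC and 2 in HH. Lymphocyte markers rose for 1 of 6 in HC and in HH, and mesothelial markers fell for 2 of 5 in H and 1 of 5 in HHC. Spermatid markers rose for 3 of 6 in HC, where they summed to 442 CPM in mouse 3 and to 3.06 and 7.38 CPM in mice 1 and 2. Of the adipocyte markers 1 of 8 was called up, Lep in H (log2 2.02), and none was called down. The median log2 fold change of this list was -0.52 in H, -0.67 in HC, -1.11 in HH and 0.37 in HHC. Over all tested genes it was -0.15, 0.27, -0.23 and -0.06. In HH 7 of 8 adipocyte markers lay below CC_l without overlap, against 28.9% of all tested genes, and 1 lay above. In the macrophage, progenitor and endothelial lists no marker was at 0 in every mouse of a group, so the pulldown was not free of these RNAs in any group, and their part in the member differences was not tested.

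**Figure D4:**
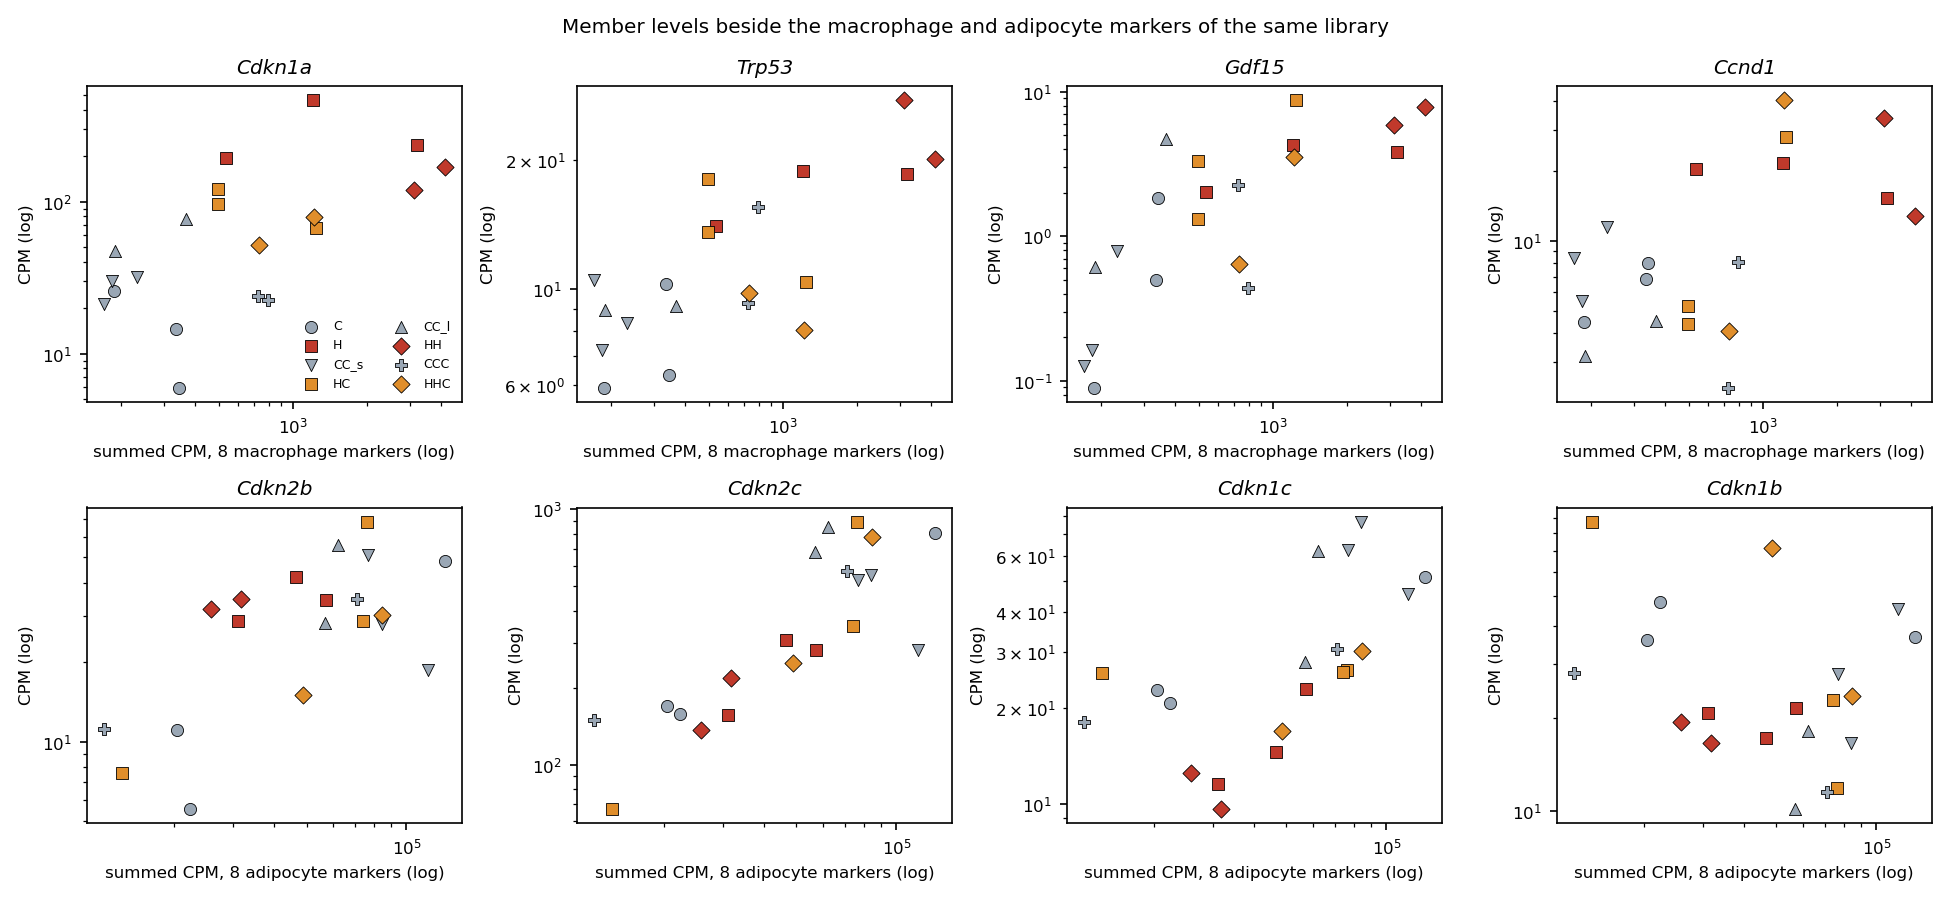
Level of 8 members (vertical axes, CPM, log scale) against the summed CPM of 8 macrophage markers (upper row) or 8 adipocyte markers (lower row) in the same library (log scale), 1 symbol per mouse. H mice spread from 538 to 3206 CPM of macrophage markers at 193 to 464 CPM of Cdkn1a, and the 4 libraries lowest in adipocyte markers have Cdkn2c at 67.1 to 170 CPM.

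Across all 20 libraries, which share diet groups, depth and cell composition, the genes most like each called member were listed by Pearson correlation of log2 CPM as a description. Tnfrsf23 (r = 0.92), Casp8 (0.91) and Lgals9 (0.90) were closest to Cdkn1a. Mxra8 (0.95), Cd81 (0.93) and Sptan1 (0.93) were closest to Trp53. Galk1 (0.91), 2700033N17Rik (0.90) and 2310010J17Rik (0.90) were closest to Cdkn1c. Adam8, Cd300a and Slc15a3 (each 0.89) were closest to Gdf15. Between members, Cdkn2b and Cdkn2c (0.74) and Cdkn1a and Trp53 (0.70) were the most alike pairs.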

How the data were processed

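TRAP-seq libraries of 20 mice were sequenced, each a separate animal by its label. The authors trimmed reads with Trim Galore 0.6.6, checked them with FastQC 0.11.9, aligned them to mm10 with HISAT2 2.2.1 and counted them per gene with featureCounts (Subread 2.0.1), per the submitters' notes. The deposited values are raw counts for 46078 genes. In each library 74.4% to 89.2% of nonzero counts were even. Most read pairs may thus have been counted as 2, which was not tested, and halved counts were an alternative.

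From these counts, edgeR 4.0.16 (R 4.3.3) was fitted to all 20 libraries in 8 groups after filterByExpr and TMM scaling, giving quasi-likelihood p-values over 21464 genes; the biological coefficient of variation was 0.68. CPM are TMM-normalized. Intervals are 1.96 SE either side. DESeq2 1.42.0 and other settings were alternatives. The test was also run on simulated counts with known changes in H. These held no differences in cell composition, so the run cannot show how the calls fare under such differences. No 2 libraries of the same group agreed within sampling noise, and libraries of different groups were not compared in this way.

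Symbols come from GENCODE vM21 (45229 of 46078 IDs matched) and promoters from RefSeq. All lists were set by role, and the named list genes are up to 3 DEGs per list and comparison, taken by size of change, the likeness genes the 3 highest correlations per called member; Chek2 and other list genes are named by this rule, macrophage and other markers by list. The members and the lists were chosen with earlier results of these data known. Deviations of same-numbered mice from their group means correlated at -0.28 to 0.19. With 2 or 3 mice per group this cannot show whether the replicate numbers pair mice.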

Additional observations from a re-analysis of the deposited data

Results flagged for a closer look

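For 3 results the effect of one diet group differed from that of another by a test of the difference itself (nominal p under 0.01 and at least 1 on the log2 scale). In the main fit, edgeR on all 8 groups with TMM scaling and the filter on low counts, none of them passed 0.05 after adjustment over all genes. The Cdkn1a effect of H exceeded that of HC by 2.48 (adjusted p = 0.325 in edgeR, and 0.00416 to 0.594 over its alternatives). The Trp53 effect of HH exceeded that of HHC by 1.87 (adjusted p = 0.144, and 0.0472 to 0.431 over its alternatives). The Cdkn1a effect of HH minus that of H was -3.04 (adjusted p = 0.848, and 0.00811 to 0.994 over its alternatives), and these 2 groups belong to different arms.

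Without the 4 libraries lowest in adipocyte markers, the Cdkn1a difference between H and HC was 1.71 and the Trp53 difference between HH and HHC was 1.34, both no longer past the cut-offs, and the Cdkn1a difference between HH and H was -2.41 and still past them. The Trp53 difference was also lost with RLE scaling (1.73), without the filter on low counts (1.92), in the fit of the compared groups (1.68), with the replicate block (1.88), without the 2 libraries high in spermatid markers (1.86), and in 6 of 8 fits that left out 1 mouse (1.46 to 1.98).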

How the results depend on the processing

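The alternatives were other tools and scalings (DESeq2, RLE, the likelihood ratio test), no filter on low counts, halved counts, a replicate block, only the compared groups, leaving out each mouse, and, chosen after seeing the data, leaving out 2 libraries high in spermatid markers or 4 low in adipocyte markers. The Cdkn1a call in H held under the 8 of these that touch H or C and the 6 fits that left out 1 mouse, and its log2 fold change lay between 3.62 and 4.86. Leaving out the 4 libraries kept 1 mouse in C and 1 in CCC, so calls against them take their spread from the other groups. Precision is limited by 2 or 3 mice per group, and low-count members (Gdf15, Cdkn2a) by depth. Where a call changed, the cause was not tested.

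The main fit was edgeR's quasi-likelihood test on all 8 groups with TMM scaling and the filter on low counts. There, at an adjusted p under 0.05, the number of members called was 1 in H, 0 in HC, 0 in HH, and 0 for each of the 3 differences between effects. Other settings put Cdkn1a, Cdkn1c, Cdkn2c, Trp53, Ccnd1 or Gdf15 below 0.05 in further comparisons. DESeq2 and edgeR without the filter were among these settings, the latter with 0.00232 for Cdkn1a and 0.0145 for Gdf15 in HC. By the DEG cut-offs it was in HC 1 (Cdkn1a) without the 2 spermatid-marked libraries. In H it was 3 with the compared groups (Cdkn1a, Cdkn1b, Ccnd1) and 3 without the 4 libraries (Cdkn1a, Cdkn1c, Trp53). In HH it was 3 with the likelihood ratio test and 3 with DESeq2 (both Cdkn1c, Trp53, Ccnd1), 3 without the filter (Cdkn1c, Cdkn2c, Ccnd1), 5 in the fit of the compared groups (Cdkn1a, Cdkn1c, Cdkn2c, Trp53, Ccnd1) and 1 (Cdkn1c) without the 2 libraries. In HHC it was 1 with DESeq2 and with RLE (Cdkn1a), 2 without the filter (Cdkn1a, Ccnd1) and 1 with the compared groups (Ccnd1). Differences of H and HC effects numbered 2 without the filter (Cdkn1a, Cdkn1b) and 0 without the 4 libraries. Those of HH and HHC effects numbered 2 with DESeq2 (Cdkn1c, Trp53), 2 without the filter (Cdkn1c, Cdkn2c), and 0 with the replicate block, the compared groups, or without the 4 libraries. DESeq2 called 1 member (Cdkn1a) for CCC against CC_l. Leaving out each mouse gave 1 to 2 members called in H, 0 to 3 in HC, 0 to 1 in HH, 0 to 1 in HHC, 0 to 1 for the HH and HHC difference (Cdkn1c in place of Trp53 without CC_l mouse 1 or HHC mouse 1, and with RLE) and 0 to 2 for CC_s against C (2 without C mouse 3), with 0 in HC without CC_s mouse 3 and 0 in HH without CC_l mouse 2.

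Directions that turned were those of uncalled members. Without the 4 libraries the log2 fold changes were -0.35 for Cdkn2b in H; in HC -0.85 for Cdkn1b, 0.39 for Cdkn2c, -0.026 for Mdm2 and -0.89 for Ccnd1; in HHC -0.091 for Cdkn2c, 0.015 for Trp53 and -0.050 for Gdf15. In the same setting the difference of H and HC effects was -0.26 for Cdkn1c and 2.64 for Gdf15, that of HH and H was -0.29 for Trp53, CC_s against C gave 1.99 for Gdf15 and CCC against CC_l -0.016 for Trp53. Without the 2 libraries, HC gave -0.79 for Cdkn1b, 0.45 for Cdkn2c and -0.82 for Ccnd1, HH gave -0.011 for Cdkn1b, and the HH and HHC difference was -0.066 for Gdf15. In HHC, Cdkn1c was 0.090 with DESeq2, 0.089 with RLE, 0.018 without the filter and 0.082 with the compared groups, and Cdkn2b was 0.12, 0.12, 0.053 and 0.092.

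Leaving out each mouse, the ranges that crossed 0 were in H -0.96 to 0.60 (Cdkn2c); in HC -0.79 to 0.88 (Cdkn1b), -0.85 to 0.58 (Cdkn2b), -1.13 to 0.45 (Cdkn2c) and -0.82 to 0.97 (Ccnd1); in HH -0.011 to 0.84 (Cdkn1b), -0.74 to 0.25 (Cdkn2b) and -0.22 to 0.49 (Mdm2); in HHC -0.52 to 0.39 (Cdkn1c), -0.61 to 1.02 (Cdkn2b), -0.54 to 1.78 (Cdkn2c), -0.70 to 0.75 (Mdm2), -0.35 to 3.25 (Ccnd1) and -1.06 to 2.22 (Gdf15). Among differences of effects they were -0.037 to 0.83 (Cdkn1c, H and HC), -0.59 to 0.11 (Cdkn1a, HH and HHC), -0.85 to 2.87 (Gdf15, HH and HHC), -0.091 to 0.41 (Trp53, HH and H) and -2.08 to 1.43 (Gdf15, HH and H), and with age -2.42 to 0.27 (Gdf15, CC_s against C) and -2.57 to 1.14 (Gdf15, CCC against CC_l).

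Blocking on the replicate numbers moved the DEGs over all genes from 1392 to 1032 in H, 373 to 204 in HC, 1457 to 1040 in HH and 669 to 375 in HHC, and left 2, 3, 2 and 0 members called. Among all DEGs, the share called up was 55.0% in H and 14.3% in HHC with TMM, 46.5% and 27.0% with RLE, and 42.9% and 29.5% with DESeq2. With DESeq2 the DEGs numbered 2163 in H, 727 in HC, 2309 in HH and 1185 in HHC.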
